A study of Mus musculus with 6 samples.

Results

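The mRNAs of 33 splicing factors, the members of the heterogeneous nuclear ribonucleoprotein (hnRNP) and SR protein families, were followed in mouse embryonic stem (ES) cells with and without the transcription factor SIM2. The members were chosen by name: every gene whose symbol in the deposited table was on a list of 21 hnRNP genes and 12 SR and TRA2 genes was taken. All 33 names were found among the 22602 listed genes, and all 33 passed the filter on low values. Hnrnpa1 was put on the list with its lower level in the clones already known, and Tra2b because it is a gene near a SIM2 site, so the values of Hnrnpa1 are a description. The list as a whole was also drawn up with earlier results of these data known.

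hnRNP proteins and SR proteins bind nascent transcripts and decide which splice sites are used. SR proteins carry an RNA recognition motif and a domain rich in arginine and serine, and as a rule they bind exonic enhancers and favour inclusion of the exon, while many hnRNP proteins bind silencers and favour skipping. Many of these genes adjust their own output: the protein promotes splicing of an exon that carries a premature stop codon, and the resulting transcript is removed by nonsense-mediated decay. ES cells keep PTBP1 high and its neuronal paralogue PTBP2 low.

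mRNA from 6 cultures was sequenced. Clones A6, B8 and C4 carry a Flag-tagged mouse Sim2 transgene behind a modified human CMV promoter in a ROSA-TET system, followed by a Venus reporter, and 1 culture of each clone was used. The EB3 (EBRTcH3) cultures, numbered 0, 1 and 2, come from the parental line, which has the inducible system and Venus and lacks the Sim2 construct. All 6 cultures grew on gelatin with serum and leukaemia inhibitory factor and were without tetracycline for 26 h, so the comparison asks what differs with SIM2 present, and any lasting difference between a clone and its parent cannot be told apart from it. The labels name 3 EB3 libraries of 1 line, and p-values measure the spread between these 6 libraries.

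The libraries held 25095861 to 28269340 reads. Sim2 lay at 168 to 212 RPKM (reads per kilobase of cDNA, scaled to the library's total) in the clones and at 0.0917 to 0.130 RPKM in EB3. The 8 ES cell markers summed to 5828 to 6948 RPKM among the clones and 5822 to 7410 RPKM in EB3. Within the sum, all clones lay below EB3 in Zfp42 (means of 424 and 525 RPKM) and above it in Esrrb (352 and 279 RPKM). In the other ES cell markers the groups overlapped. The 6 fibroblast markers summed to 10.7 to 13.8 RPKM among the clones and 10.1 to 13.3 RPKM in EB3, nearly all of it Thy1, with Postn at 0 in all 6 libraries and Col1a1, Col1a2, Col3a1 and Dcn near 0. The 6 primitive endoderm markers summed to 3.97 to 5.22 RPKM among the clones and 2.60 to 3.33 RPKM in EB3, so all clones lay above EB3. All clones were also above EB3 in Gata4 (0.980 RPKM at most), Sox17 (0.298 RPKM at most) and Pdgfra (0.278 RPKM at most). The groups overlapped in Sox7 (means of 1.90 and 1.23 RPKM), Gata6 (0.644 RPKM at most) and Dab2. The sums of 6 neural markers were 16.3 to 25.1 RPKM for the clones and 16.3 to 25.3 RPKM for EB3. The part of such cells in the results was not tested. EB3-0 stood apart from EB3-1 and EB3-2 by a trend with cDNA length (Spearman's rho of its deviation with length -0.61 over 11595 tested genes), so results that rest on it are given with and without it.

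The splicing factors were abundant in every library, with a median over members of 113 RPKM. Among SR and TRA2 genes the mean over the 6 libraries ran from 21.6 RPKM for Srsf10 to 446 RPKM for Srsf2. Among the hnRNP A/B, D and C genes it ran from 19.4 RPKM for Hnrnpa3 to 482 RPKM for Hnrnpab, and among the other hnRNP genes from 9.16 RPKM for Ptbp2 to 432 RPKM for Hnrnpu. RPKM is a level per length. The order is uncertain for members whose reads can be shared with copies, Hnrnpa3 above all, which has 32 copies of up to 2703 bases in mm9. Values by library are given in the order A6, B8 and C4 for the clones and EB3-0, EB3-1 and EB3-2 for EB3. Hnrnpab ranked 80 and Srsf2 85 of all listed genes by mean RPKM, and 17 members lay at 100 RPKM or more. Srsf2, the most abundant SR gene, whose protein binds exonic enhancers, had 420.1, 445 and 455 RPKM in the clones against 464, 441 and 451 RPKM in EB3. Its groups overlapped.

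**Figure D1:**
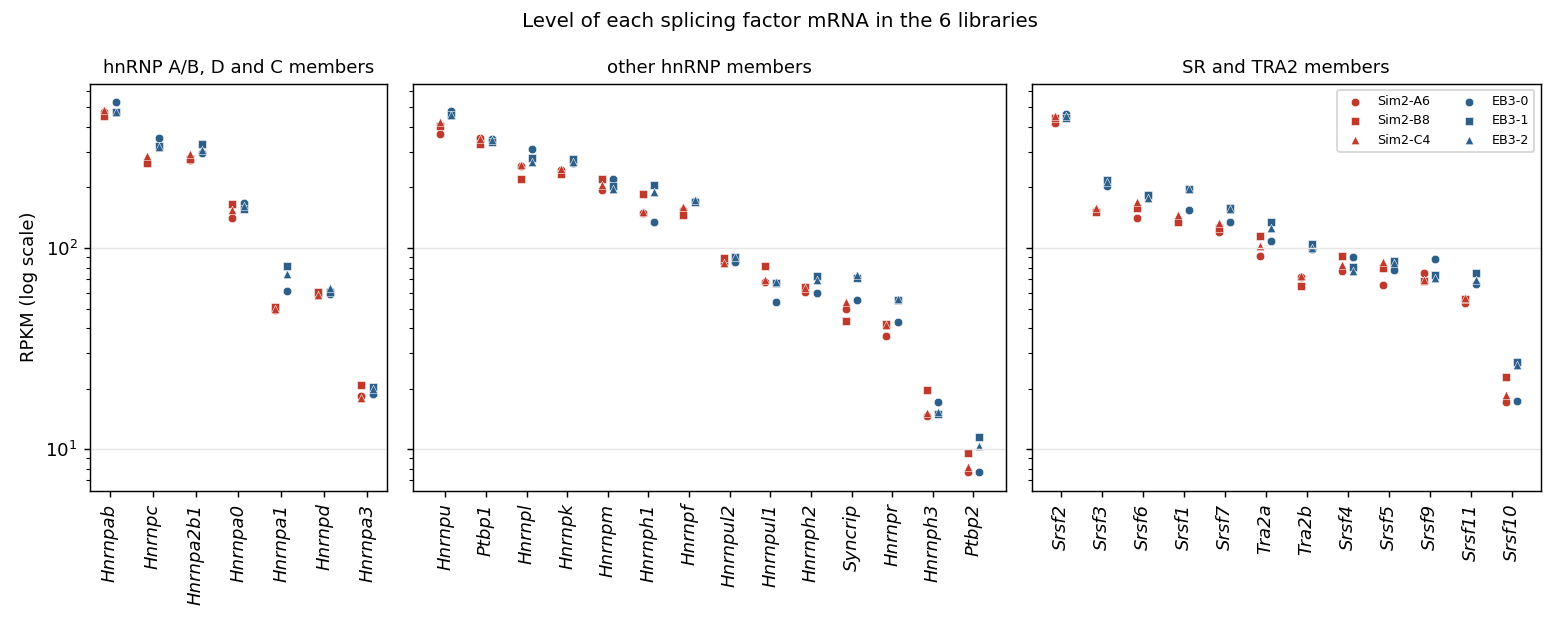
RPKM on a log scale of the 33 members, ordered by mean level within their group, in the 3 Sim2 clones (red) and the 3 EB3 cultures (blue); each point is 1 library. The levels run from Hnrnpab, Srsf2 and Hnrnpu above 400 RPKM to Ptbp2 near 10 RPKM, and in 15 members all red points lie below all blue points.

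Most members were lower in the Sim2 clones than in EB3, by small amounts. Of the 33 members, 28 had a log2 fold change below 0 (84.8%), where 50.9% of all 11595 tested genes did, and the median over the members was -0.16 against -0.01 over all tested genes. In 15 members (45.5%) all 3 clones lay below all 3 EB3 cultures, against 13.4% of all tested genes. All clones lay above EB3 in 0 members, and the share of all tested genes in that direction was not counted. After adjustment over all tested genes (limma on log2(RPKM + 0.5), Benjamini-Hochberg) 1 member passed at 0.05, Tra2b, which was lower; 0.354% of all tested genes were called lower. Before adjustment, p was under 0.05 for 10 members, each lower in the clones, against 9.36% of tested genes that were lower at that p. Hnrnpa1, listed with its lower level known, is among the 28, the 15 and the 10 and enters the median, so its part in them is a description. The whole list was chosen with earlier results of these data known. The counts beside the shares of all tested genes are therefore a description, and no test over the list was run. RPKM is scaled to the library's total, so a lower value in a bulk culture is a lower share of that total. Less RNA per cell and fewer cells that express the gene, among other sources, cannot be told apart here.

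Abundance moved with these counts. The 1908 tested genes at 50 RPKM or more had a median log2 fold change of -0.06, and in 20.3% of them all clones lay below EB3. Of the 28 members in that class, 14 did. At 100 RPKM or more the median of the 817 tested genes was -0.08 and the share 22.4%, and 10 of 17 members had all clones below EB3. The part of abundance in the members' shift was not tested.

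Summed over the 33 members, the level was 4742, 4895 and 5031 RPKM for A6, B8 and C4, against 5426, 5540 and 5443 RPKM for EB3-0, EB3-1 and EB3-2. The clones thus had 89.4% of the EB3 sum (4889 ± 144 against 5470 ± 61.4 RPKM; SD, n = 3 each), and the groups did not overlap. The sum of the SR and TRA2 genes was 86.0% of that in EB3 (1495 ± 67.8 against 1738 ± 46.1 RPKM), that of the hnRNP A/B, D and C genes 90.2% (1307 ± 35.3 against 1448 ± 35.4 RPKM), and that of the other hnRNP genes 91.5% (2088 ± 46.3 against 2283 ± 30.9 RPKM). Each clone showed the shift. Relative to the EB3 mean, the median log2 ratio of the members was -0.19 in A6, with 31 of 33 below, -0.12 in B8, with 25 below, and -0.14 in C4, with 28 below. Over all tested genes the same medians were 0.01, -0.01 and -0.02. An EB3 culture compared in the same way with the average of the other EB3 cultures gave -0.08 for EB3-0, 0.06 for EB3-1 and 0.01 for EB3-2. The members below that average numbered 21 of 33 in EB3-0, 13 in EB3-1 and 15 in EB3-2.

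**Figure D2:**
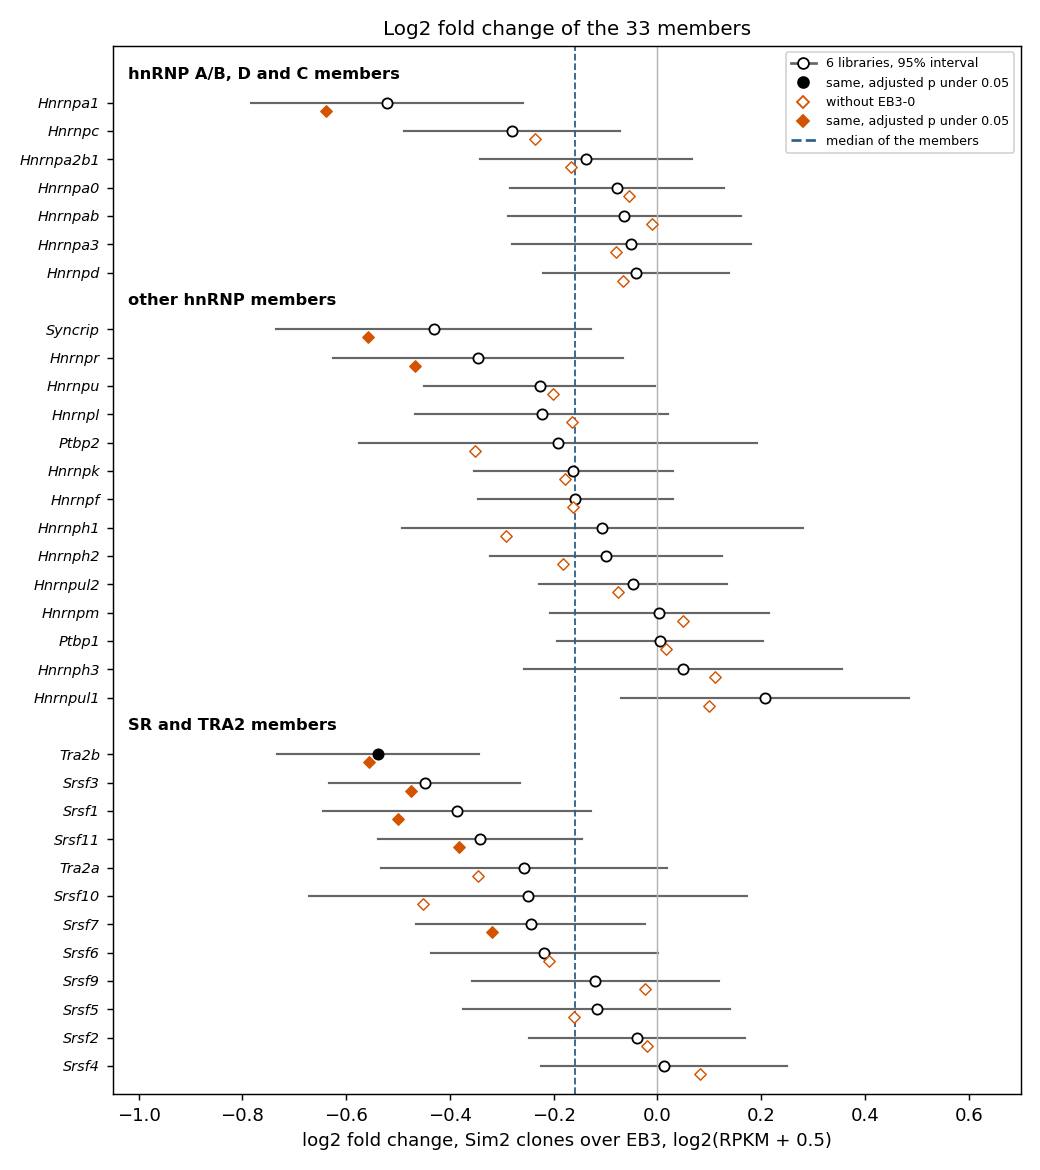
Log2 fold change of each member, Sim2 clones over EB3, with its 95% interval from limma on 6 libraries (circles, filled where the adjusted p is under 0.05) and the value without EB3-0 (orange diamonds, filled likewise). The dashed line is the members' median of -0.16; Tra2b alone is filled among the circles, and 8 diamonds are filled.

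The lowest adjusted p-values belonged to Tra2b, Srsf3 and Hnrnpa1. Of these 3, Tra2b alone passed the threshold. Their promoters are shown as those of the members with the lowest adjusted p, with ACGTG marked, since this is the known core of sites of bHLH-PAS dimers such as SIM2 with ARNT. Each line gives the 250 bases before the annotated RefSeq start on the gene's strand, from the GRCm38.p6 assembly, with ACGTG or its reverse complement CACGT in capitals. The positions are chr16:22266006-22266255 on the minus strand for Tra2b, chr17:29032410-29032659 on the plus strand for Srsf3 and chr15:103240147-103240396 on the plus strand for Hnrnpa1, in that assembly and not in mm9.
Tra2b: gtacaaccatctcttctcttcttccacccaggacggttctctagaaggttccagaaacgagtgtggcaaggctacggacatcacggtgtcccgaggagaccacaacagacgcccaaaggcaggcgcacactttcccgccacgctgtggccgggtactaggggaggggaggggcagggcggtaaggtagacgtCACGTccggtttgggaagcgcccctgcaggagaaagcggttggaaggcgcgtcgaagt
Srsf3: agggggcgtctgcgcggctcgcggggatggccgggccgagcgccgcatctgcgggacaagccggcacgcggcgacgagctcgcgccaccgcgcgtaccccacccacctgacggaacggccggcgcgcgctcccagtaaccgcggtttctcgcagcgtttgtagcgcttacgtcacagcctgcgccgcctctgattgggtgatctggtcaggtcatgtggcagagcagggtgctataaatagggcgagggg
Hnrnpa1: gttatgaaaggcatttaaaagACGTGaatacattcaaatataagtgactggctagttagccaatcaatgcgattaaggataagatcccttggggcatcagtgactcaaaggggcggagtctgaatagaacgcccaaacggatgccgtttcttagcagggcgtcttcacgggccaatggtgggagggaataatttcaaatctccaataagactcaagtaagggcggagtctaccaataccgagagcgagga
The match in Tra2b begins 58 bases before the start and that in Hnrnpa1 229 bases before it, and the window of Srsf3 holds no match. The Tra2b window is 60.8% G and C, the Srsf3 window 69.6% and the Hnrnpa1 window 46.0%.

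Promoters were found in RefSeq for 32 of the 33 members, 44 in all, and Hnrnpul2 had none there. In windows that run on to 50 bases after the start, ACGTG on either strand was present in 18 of the 44 (40.9%), against 19.6% of 32851 mouse promoters and 26.0% of the promoters of tested genes. The ETS core CCGGAA was in 17 (38.6%, against 14.9% and 27.9%), the letters CCAAT in 23 (52.3%, against 37.4% and 38.3%) and TATAAA in 4 (9.09%, against 13.6% and 6.59%). Member promoters had a median of 66.6% G and C over the 250 bases, against 52.4% for all promoters. Some members have several promoters whose windows overlap, as in Srsf4 and Hnrnpa2b1, so the same ACGTG can be counted more than once. No G and C median is given for the promoters of tested genes. These counts describe letters in a window and not bound sites.

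The SR and TRA2 genes had the lowest median log2 fold change of the 3 groups, -0.25 over 12 genes. In 11 of the 12 the value was below 0, in 6 all clones lay below all EB3 cultures, and 1 was called. Over all tested genes the shares were 50.9% below 0, 13.4% with all clones below EB3 and 0.354% called lower. Tra2b (mm9 chromosome 16, 22245814 to 22266002, minus strand), whose protein binds GAA-rich exonic enhancers, had 71.5, 64.5 and 72.9 RPKM in the clones against 98.8, 104 and 101 RPKM in EB3. The clones were all low, the EB3 cultures all high, and the gap between the groups was 25.9 RPKM, wider than the range within either. Tra2b fell to 68.8% of EB3, with 69.6 ± 4.51 RPKM over the clones against 101 ± 2.79 RPKM over EB3 (± SD, n = 3 per group) and a log2 fold change of -0.54 (95% interval -0.73 to -0.34; limma, adjusted p = 0.0405). An exact permutation of libraries (2-sided) cannot go below p = 0.1 with 3 in each group, and every member whose groups did not overlap, Tra2b included, had that value. The call did not survive 5 of the 6 omissions of a library, being lost without A6 (limma, adjusted p = 0.134), B8 (0.105), C4 (0.119), EB3-1 (0.221) or EB3-2 (0.198). It was kept without EB3-0 (0.0197) and lost with EB3-1 and EB3-2 averaged as 1 library (0.209), with a log2 fold change between -0.57 and -0.48 when 1 library was left out. With trends of GC content and cDNA length removed from each library it shrank to -0.34 (limma, adjusted p = 0.0449).

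Srsf3 (chromosome 17, 29169605 to 29180317, plus strand) encodes the smallest SR protein, which acts in splicing, 3′ end choice and mRNA export. It had 153, 151 and 158 RPKM in the clones against 203, 217 and 212 RPKM in EB3. The groups were 44.7 RPKM apart, with 154 ± 3.83 RPKM over the clones against 211 ± 6.96 RPKM over EB3 (± SD, n = 3 per group). The log2 fold change was -0.45 ± 0.08 (SE) with an adjusted p of 0.0602 from limma, short of the threshold, and with the GC content and length trends removed it was -0.28 (limma, adjusted p = 0.0979). Srsf1 (chromosome 11, 87861173 to 87867259), a founding member of the SR family, had 136, 135 and 146 RPKM in the clones against 155, 197 and 197 RPKM in EB3. The groups did not overlap, and EB3-0 lay nearer to the clones than to the other EB3 cultures. Its log2 fold change was -0.39 ± 0.11 (SE; limma, adjusted p = 0.143), and with those trends removed it was -0.41 (limma, adjusted p = 0.0269).

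Srsf11 (chromosome 3, 157673457 to 157686386), an SR-related protein known to contact U2AF, had 53.2, 55.8 and 56.7 RPKM in the clones against 66.3, 75.1 and 69.3 RPKM in EB3. All clones were low, and the log2 fold change was -0.34 ± 0.09 (SE; adjusted p = 0.106, limma). Srsf7 (chromosome 17, 80599420 to 80606645), a zinc-knuckle SR protein and the closest relative of Srsf3, had 119.7, 126 and 133 RPKM in the clones against 135, 158 and 157 RPKM in EB3. C4 and EB3-0 lay 2.05 RPKM apart, so the groups were barely separate, and the log2 fold change was -0.24 ± 0.10 (SE; limma, adjusted p = 0.240), or -0.11 with the GC content and length trends removed (limma, adjusted p = 0.416). Srsf6 was the sixth SR gene whose groups did not overlap, at 140.4 to 169.5 RPKM in the clones against 176 to 184 RPKM in EB3 (log2 fold change -0.22; limma, adjusted p = 0.284).

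In the other 6 SR and TRA2 genes, Srsf2 among them, the groups overlapped. Tra2a, the paralogue of Tra2b, had 91.2, 115 and 103 RPKM in the clones against 108, 135 and 125 RPKM in EB3, where B8 lay above EB3-0. Its log2 fold change was -0.26 (95% interval -0.53 to 0.02; limma, adjusted p = 0.314). Srsf10, whose protein represses splicing when it is dephosphorylated, was the least abundant, with 17.3, 22.8 and 18.5 RPKM in the clones against 17.4, 27.2 and 26.2 RPKM in EB3. EB3-0 was as low as the clones, and the interval of its log2 fold change ran from -0.67 to 0.17. Srsf5 lay at 65.4 to 85.0 RPKM in the clones against 77.9 to 86.0 RPKM in EB3, and Srsf9 at 68.8 to 74.9 RPKM in the clones against 71.2 to 88.4 RPKM in EB3. Srsf4, the only member of this group above 0, lay at 76.4 to 91.6 RPKM in the clones against 77.0 to 90.6 RPKM in EB3, a log2 fold change of 0.01 (95% interval -0.22 to 0.25).

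Among the hnRNP A/B, D and C genes, Hnrnpa1 and Hnrnpc were apart from the rest. All 7 had a log2 fold change below 0, with a median of -0.08. In 3 all clones lay below EB3, against 13.4% of all tested genes. Hnrnpa1 (chromosome 15, 103070863 to 103075386, plus strand) encodes a shuttling repressor of exon inclusion that opposes SRSF1. It had 49.4, 50.7 and 49.5 RPKM in the clones against 60.9, 81.7 and 74.3 RPKM in EB3. The 3 clones spanned 0.04 on the log2 scale, while the EB3 cultures spanned 0.42 with EB3-0 the lowest. The means were 49.9 ± 0.726 RPKM over the clones against 72.3 ± 10.5 RPKM over EB3 (± SD, n = 3 per group), which is -0.52 ± 0.11 (SE) as a log2 fold change, with an adjusted p of 0.0847 from limma. Hnrnpa1 is also on a short list that the authors chose on these same libraries, so its direction is not independent evidence.

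Hnrnpc (chromosome 14, 52693055 to 52723703), which binds uridine tracts and keeps cryptic exons silent, had 266, 264 and 287 RPKM in the clones against 351, 322 and 319 RPKM in EB3. Here EB3-0 was the highest library, and the log2 fold change was -0.28 ± 0.09 (SE; limma, adjusted p = 0.170), or -0.16 with the GC content and length trends removed (limma, adjusted p = 0.402). Hnrnpa2b1, which binds sorting signals in RNA, had 273, 278 and 294 RPKM in the clones against 297, 328 and 305 RPKM in EB3, a separation of 2.96 RPKM (log2 fold change -0.14; limma, adjusted p = 0.469). Hnrnpab, the most abundant member, had 476, 452 and 486 RPKM in the clones against 531, 477 and 472 RPKM in EB3. Only EB3-0 lay above the clones, and the log2 fold change was -0.06 (95% interval -0.29 to 0.16). Hnrnpa3 had 18.5, 20.8 and 17.9 RPKM in the clones against 18.9, 20.4 and 19.9 RPKM in EB3, so the clones spanned the EB3 values. Hnrnpa0 lay at 141 to 165 RPKM in the clones against 157 to 167 RPKM in EB3, and Hnrnpd, which binds AU-rich elements, at 58.3 to 60.3 RPKM in the clones against 58.9 to 63.0 RPKM in EB3.

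The other 14 hnRNP genes had a median log2 fold change of -0.13, with 10 below 0. In 6 all clones lay below EB3, against 13.4% of all tested genes. Syncrip and Hnrnpr, a pair of closely related proteins that bind mRNA in nucleus and cytoplasm, were the lowest. Syncrip (chromosome 9, 88344576 to 88377235) had 49.9, 43.1 and 53.9 RPKM in the clones against 55.4, 70.9 and 73.1 RPKM in EB3, and Hnrnpr (chromosome 4, 135866891 to 135896593) had 36.6, 42.1 and 41.5 RPKM in the clones against 43.1, 55.0 and 55.9 RPKM in EB3. In both genes EB3-0 sat just above the highest clone, by 1.45 and 0.961 RPKM, and well below EB3-1 and EB3-2. The log2 fold changes were -0.43 ± 0.13 for Syncrip and -0.35 ± 0.12 for Hnrnpr (SE; limma, adjusted p = 0.154 and 0.198).

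Hnrnpu (chromosome 1, 180258431 to 180267915), the scaffold attachment factor and the most abundant of this group, had 368, 406 and 422 RPKM in the clones against 482, 458 and 457 RPKM in EB3. The groups were 35.4 RPKM apart, and the log2 fold change was -0.23 ± 0.10 (SE; limma, adjusted p = 0.272). The groups did not overlap either in Hnrnpl, which binds CA repeats (219.5 to 260.0 RPKM in the clones against 269 to 310.4 RPKM in EB3), in Hnrnpk, which binds poly(C) (233 to 248 RPKM in the clones against 265 to 279 RPKM in EB3), or in Hnrnpf, which binds G tracts (146 to 161 RPKM in the clones against 169.8 to 174 RPKM in EB3). Their log2 fold changes were -0.22, -0.16 and -0.16, with adjusted p from limma between 0.322 and 0.361.

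The remaining 8 overlapped. Ptbp1, the polypyrimidine tract binding protein of non-neuronal cells, lay at 330.0 to 353 RPKM in the clones against 336 to 349 RPKM in EB3, with a log2 fold change of 0.00 (95% interval -0.19 to 0.20). Ptbp2 was the least abundant member, with 7.69, 9.62 and 8.12 RPKM in the clones against 7.68, 11.4 and 10.4 RPKM in EB3. Its lowest values came from A6 and EB3-0 alike. Hnrnpul1, the highest fold change of all members, had 67.5, 81.5 and 69.0 RPKM in the clones against 54.0, 67.3 and 67.8 RPKM in EB3, where EB3-0 was the lowest library and the overlap lay between A6 and the other EB3 cultures. Its log2 fold change was 0.21 (95% interval -0.07 to 0.48; limma, adjusted p = 0.418). Among these 8 genes Hnrnph1 had the widest range in EB3, from 135 RPKM in EB3-0 to 207 RPKM in EB3-1, against 149 to 187 RPKM in the clones. Hnrnph2 lay at 60.1 to 63.7 RPKM in the clones against 59.6 to 72.6 RPKM in EB3, Hnrnph3 at 14.7 to 19.6 RPKM in the clones against 14.9 to 17.3 RPKM in EB3, Hnrnpm at 194 to 219 RPKM in the clones against 196 to 219 RPKM in EB3 and Hnrnpul2 at 83.8 to 89.1 RPKM in the clones against 85.2 to 90.6 RPKM in EB3.

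**Figure D3:**
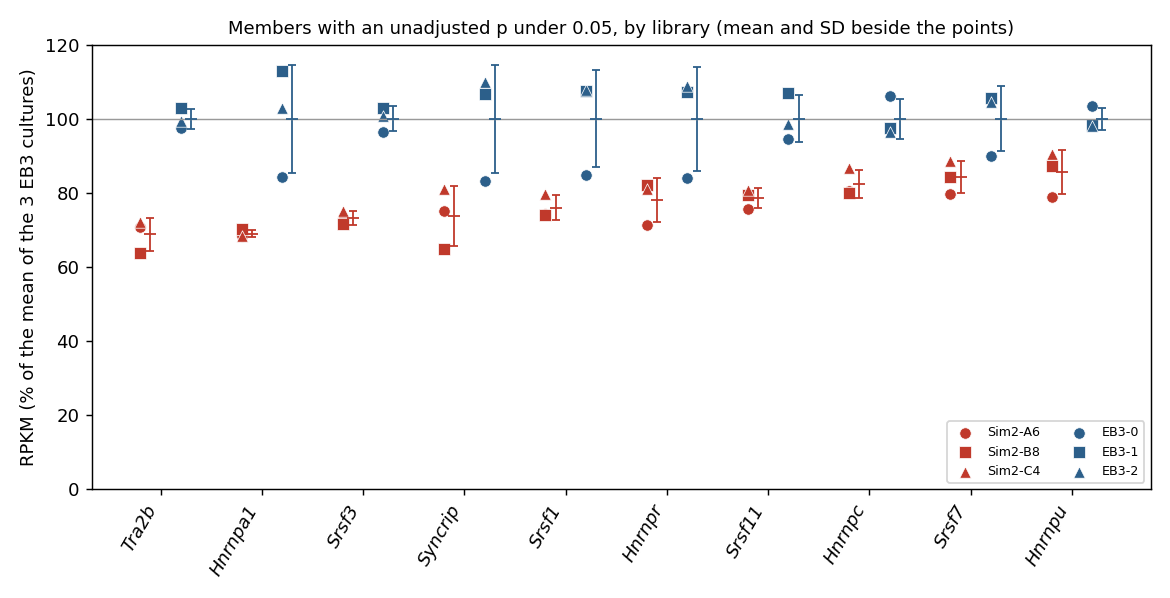
RPKM of the 10 members with an unadjusted p under 0.05, as a percentage of the mean of the 3 EB3 cultures, in each library, with the mean and SD beside the points (n = 3). The clones lie near 69% for Tra2b and Hnrnpa1 and near 86% for Hnrnpu, and EB3-0 (blue circles) is the lowest EB3 culture in 8 of the 10.

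How many members were called depended on EB3-0. In the fit without EB3-0, 8 members were called lower, against 3.45% of all tested genes: Tra2b, Hnrnpa1, Srsf3, Srsf1, Hnrnpr, Syncrip, Srsf11 and Srsf7. Hnrnpa1 counts among the 8 though it was listed with its lower level known. The adjusted p-values from limma were 0.0146 for Hnrnpa1, 0.0164 for Srsf3, 0.0176 for Srsf1, 0.0334 for Hnrnpr, 0.0350 for both Syncrip and Srsf11, and 0.0415 for Srsf7. The log2 fold change of Hnrnpa1 was then -0.64, that of Syncrip -0.56, that of Srsf1 -0.50, and those of Tra2b and Srsf3 hardly moved (-0.56 and -0.47). In this fit EB3 is represented by EB3-1 and EB3-2 alone, which differed by a median of 0.04 on the log2 scale over the members. Per the study's methods the EB3 libraries come from independent cultures. With both averaged as 1 library and EB3-0 kept, 0 members were called by limma. EB3-0 was the lowest EB3 culture in 20 of the 33 members and the highest in 11. Its deviation from the mean of EB3-1 and EB3-2 ran from -0.60 for Srsf10 to 0.29 for Srsf9 on the log2 scale.

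The deviation of EB3-0 went with cDNA length less clearly in the members than in all genes, with a Spearman's rho of -0.27 over 33 members, which share the same libraries. The log2 fold change itself had a rho of -0.06 with length. Member cDNAs ran from 1252 bases (Srsf9) to 6810 bases (Hnrnpd), with a median of 2678 against 2732 over all tested genes. With the trends of GC content and length removed, the median of the members was -0.09, 24 were below 0, and 2 were called lower (Srsf1 and Tra2b), against 0.733% of all tested genes. In that fit 6 members went from below to above 0, Hnrnpa2b1 (0.02), Hnrnpk (0.06), Hnrnph1 (0.05), Hnrnph2 (0.09), Ptbp2 (0.01) and Srsf5 (0.08), and Ptbp1 and Srsf4 went the other way. Within groups the members had smaller SDs than the tested genes at large. The SD of a member's log2(RPKM + 0.5) had a median of 0.09 among clones and 0.09 among EB3 cultures, against 0.14 and 0.16 over all tested genes. The members are mostly abundant: 28 of the 33 lie at 50 RPKM or more, as do 1908 of the 11595 tested genes. The part of abundance in the smaller SDs was not tested. A6 was the lowest clone in 21 of the 33 members.

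The balance between related genes was compared next. For 10 pairs or families of related genes, 15 shares of the family's summed RPKM were compared. The groups did not overlap in 4, each with an exact permutation p of 0.1 (2-sided, the smallest possible) and 0.375 after adjustment over the 15 shares. For Hnrnpa1, which was listed with its lower level known, the share is a description and no support. It made up 9.90 ± 0.323% of the sum of Hnrnpa0, Hnrnpa1, Hnrnpa2b1 and Hnrnpa3 in the clones and 12.8 ± 1.42% in EB3. Srsf7 made up 45.0 ± 0.993% of Srsf3 and Srsf7 in the clones and 41.5 ± 1.43% in EB3, the balance lying toward Srsf7. Srsf6 made up 49.4 ± 1.14% of Srsf4, Srsf5 and Srsf6 against 52.3 ± 0.256%, and Hnrnpul2 made up 54.2 ± 1.74% of Hnrnpul1 and Hnrnpul2 against 58.6 ± 2.28%.

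The other shares overlapped. Tra2b was 40.5 ± 4.16% of the TRA2 pair in the clones and 45.2 ± 2.19% in EB3 (exact permutation p = 0.2), with A6 at 44.0% above EB3-1 at 43.5%. Ptbp2 was 2.41 ± 0.373% of the PTBP pair in the clones and 2.79 ± 0.584% in EB3, so Ptbp1 made up nearly all of it in every library. Syncrip kept a share of 54.9 ± 3.78% beside Hnrnpr in the clones and 56.4 ± 0.207% in EB3, and Hnrnpab was 88.9% and 89.0% of its sum with Hnrnpd.

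**Figure D4:**
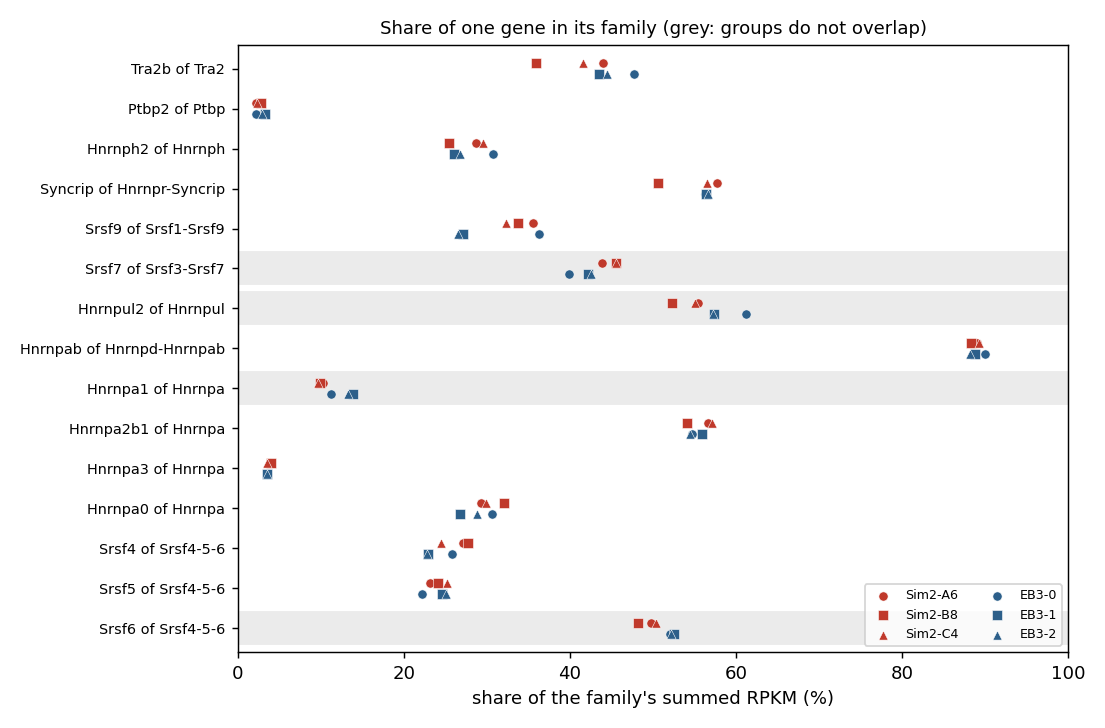
Share (%) of 1 gene in the summed RPKM of its family, in the 3 Sim2 clones (red) and the 3 EB3 cultures (blue), 1 point per library; grey marks the 4 shares whose groups do not overlap. In the clones Srsf7 had more of its pair, and Hnrnpa1, Srsf6 and Hnrnpul2 less of their families, and Tra2b and Ptbp2 overlap between groups.

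Reads of some members could be shared with copies of their transcripts, since the treatment of reads that match several positions equally well is not given in the sources used here. In mm9, 16 members had at least 1 stretch of 300 bases or more at 95% identity or more outside their own locus. Tra2b had 3, the longest of 2006 bases at 96.6% on the X chromosome, Srsf3 had 4 and Hnrnpa1 9, so their values are uncertain to that degree, while Srsf1, Srsf7, Srsf11 and Hnrnpu had 0. Hnrnpa3 had 32 and Hnrnpf 8. The table also lists Gm10052 and Gm5643 at positions that overlap Hnrnpa1 on its strand. Gm10052 had 44.2, 47.5 and 44.4 RPKM among the clones and 59.1, 81.0 and 74.7 RPKM in EB3, close to Hnrnpa1 in each library, so these listed genes cannot be told apart from Hnrnpa1.

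The chromosomal surroundings differed from gene to gene. Hnrnpa1 lies where other genes were higher in the clones: the 38 other tested genes within 2 Mb had a median log2 fold change of 0.23, 30 of them above 0. Hnrnpa1 itself was at -0.52. Around Tra2b the 33 neighbours had a median of 0.03, around Srsf3 the 47 neighbours 0.07, and around Srsf1 the 33 neighbours -0.04. Srsf11 had only 5 tested neighbours, 0 of them above 0, with a median of -0.20. The lowest median of any member's neighbours was -0.55, around Hnrnpa2b1, with 2 of 7 neighbours above 0.

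Of the members, 4 are on the study's list of genes nearest to a region bound by SIM2 (Hnrnpf, Ptbp2, Srsf6 and Tra2b), and 3 have a promoter listed as contacting such a region (Hnrnpa1, Hnrnpf and Hnrnpr), 6 genes in all. Tra2b was put among the members for its site and Hnrnpa1 with its lower level known, so both are a description here. The share of all listed genes on either list was not counted, so these counts show no excess. Their log2 fold changes were -0.54 for Tra2b, -0.52 for Hnrnpa1, -0.35 for Hnrnpr, -0.22 for Srsf6, -0.19 for Ptbp2 and -0.16 for Hnrnpf. Srsf3, Srsf1, Srsf11 and Syncrip, which were as low as several of these, are on neither list. The contact listed for Hnrnpa1 spans many Mb of its chromosome. The study pairs the same region with Gm10052 and Gm5643, which it places on other chromosomes. Since the levels of Gm10052 and Gm5643 cannot be told apart from Hnrnpa1 here, which gene that contact belongs to is uncertain.

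Transcripts annotated as targets of nonsense-mediated decay were listed for 12 of the 33 members (36.4%) in an mm9 gene annotation, and for 16.2% of 11415 tested genes found there. Among SR and TRA2 genes it was 6 of 12: Tra2b, Srsf3, Srsf1, Srsf11, Srsf2 and Srsf5. Of these, Srsf2 and Srsf5 overlapped between the groups. Srsf6 and Srsf7, whose groups did not overlap, had no such transcript listed. RPKM per gene sums all exons, so how much of a level comes from such transcripts was not measured here.

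The rest of the splicing machinery was followed in 9 lists with 114 names, of which 108 were in the table and 100 were tested. By limma 0 of the 100 were called, and the smallest adjusted p was 0.0882, while at an unadjusted p under 0.05 there were 12 lower and 3 higher. Their median log2 fold change was -0.04, 58 were below 0, and in 18 all clones lay below EB3, against 13.4% of all tested genes. In 9 all clones lay above EB3, a direction not counted over all tested genes. The 13 proteins of U1, U2 and the Sm ring had the lowest median of the 9 lists, -0.17, with 11 below 0. Snrpb2, a U2 protein, had 70.6 ± 4.44 RPKM among the clones and 91.3 ± 3.95 RPKM in EB3 (limma, adjusted p = 0.0928), and the Sm protein gene Snrpd1 had 112 ± 4.55 and 139 ± 13.0 RPKM (limma, adjusted p = 0.154). Summed over the 13 genes, EB3-0 stood out at 2345 RPKM. The sum was 1824 RPKM in EB3-1 and 1813 RPKM in EB3-2, against 1717 to 1811 RPKM in the clones. The lower values of this list thus lean on EB3-0, and its median without EB3-0 is not given here.

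Of 16 other hnRNP-like genes tested, 9 were below 0, with a median of -0.04. Taf15, which encodes an RNA-binding protein, had the smallest adjusted p (-0.43 ± 0.10 on the log2 scale; limma, 0.0882), followed by Tardbp, which encodes TDP-43 (-0.28; limma, adjusted p = 0.160). Among 11 SR kinase and import genes the median was -0.05; Clk2, a kinase of SR proteins, had 12.7 RPKM among the clones and 15.9 RPKM in EB3 (log2 fold change -0.32), and Clk1 a log2 fold change of -0.31. Among 14 SR-related coactivators the median was -0.06, with Rbm39, a partner of U2AF, at -0.34 (limma, adjusted p = 0.116) and Luc7l2 at -0.34. The 12 genes of U2AF, SF1 and SF3 had a median of 0.00, with U2af1, which reads the AG of the 3′ splice site, at -0.39, and the 10 of U4/U6 and U5 a median of -0.08, with Snrnp200 at 0.21. The 12 tested tissue-biased regulators had a median of -0.01, with Esrp2, an epithelial regulator, at 0.58 and Khdrbs1 (SAM68) at -0.25, and the 4 DBHS and matrin genes -0.05, with Sfpq at -0.16. The 8 nonsense-mediated decay factors lay the other way, with a median of 0.08 and Upf1, the helicase of the pathway, at 0.30 (limma, adjusted p = 0.153). Whether the members differ from these lists was not tested.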

How the data were processed

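mRNA libraries of 3 Sim2 clones and 3 EB3 cultures were grouped by their labels. Per the study's methods, the authors mapped paired reads to mm9 with BWA, counted the exon coverage of each gene with a custom pipeline, tested it with edgeR, and deposited RPKM for each library. Strand use, the handling of reads with several positions, and tool versions are not given in the sources used here. The table lists 22602 genes, with 0 per-sample columns unused. RPKM times cDNA length gave whole multiples of 1 read for 100% of values (tolerance 0.05), which gave the depth. Since both mates of a pair appear to be counted, independent fragments are fewer. The least abundant member, Ptbp2, had 649 to 1030 reads.

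Genes with a mean of at least 1 RPKM (11595, 51.3% of those listed) were fitted together with limma 3.58.1 (R 4.3.3) on log2(RPKM + 0.5) with an intensity trend. Fold changes are on that scale, and a gene was called at a Benjamini-Hochberg adjusted p under 0.05. Families and single values used 2-sided exact permutation tests over libraries. Copies were sought with blastn 2.17.0 in mm9, and promoters came from RefSeq. Protein sequences were not analysed here. The text gives values in every library for Tra2b and Hnrnpa1, for members with an unadjusted p under 0.05 and separate groups, and for the most and least abundant of each group, and from each other list at most 2 genes with the smallest unadjusted p. The members and gene lists were chosen with earlier results of these data known. Alternatives left out each library, averaged EB3-1 with EB3-2, or changed the pseudocount (0.1 or 1), the filter (none, or at least 5 RPKM), the normalization (quantile, median centring, removal of GC content and length trends by splines) or the intensity trend.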

Additional observations from a re-analysis of the deposited data

How the results depend on the processing

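With 1 library left out, the number of members called ran from 0 to 8, of all tested genes from 6 to 694 and of the other splicing genes from 0 to 9, the highest in each case coming without EB3-0. Averaging EB3-1 with EB3-2 left 0 members and 6 genes in all called by limma (1 and 81 with all libraries). The counts were 0 and 28 without a filter on low values and 0 and 30 without the intensity trend. Median centring called 0 members, its smallest adjusted p being 0.0521 for Tra2b, and removal of GC content and length trends called 2 members of 201 genes. The members' median of -0.16 moved to -0.087 under quantile normalization and to -0.092 with the GC content and length trends removed, and to between -0.18 and -0.14 with 1 library left out. Both pseudocounts, the filter at 5 RPKM and quantile normalization called 1 member, Tra2b, with adjusted p from 0.0405 to 0.0469. Over the alternatives, 24 to 31 of the 33 members had a log2 fold change below 0. The share of Hnrnpa1 in its family changed by -1.68 percentage points when shares of reads replaced shares of RPKM, against -2.89. No paired analysis was possible because the clones are named A6, B8 and C4 and the cultures 0, 1 and 2. All refits use the same 6 libraries, 1 culture per clone and 3 cultures of 1 parental line.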
